A study of Mus musculus with 12 samples.

Results

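The genes described here carry TGF-beta and activin signals in mouse regulatory T cells (Treg). They are 10 genes chosen by name (Tgfb1, Acvr1b, Tgfbr1, Tgfbr2, Smad2, Smad3, Smad4, Smad7, Ski and Skil), of 36222 genes in the expression table, and each name belonged to 1 gene identifier. The study asked how loss of the transcription factor Ikaros, encoded by Ikzf1, changes gene expression in Treg. Single mice were either WT, which carried only a YFP-tagged Cre expressed from the Foxp3 locus, or cKO, in which the same Cre also deleted floxed Ikzf1 alleles. Both genotypes therefore carried the Cre, and the deletion follows Foxp3 expression rather than an outside trigger. YFP+ CD4+ cells, per the labels from spleen (the study's methods name lymph nodes too), were sorted and used either directly (ex vivo, from mice of 6 to 8 weeks of age by the study's methods) or after 4 h on plate-bound anti-CD3 and anti-CD28 at 1 µg/ml each (stimulated), antibodies that engage the T cell receptor complex and its costimulator. Each of the 4 combinations of genotype and condition had 3 libraries, described as biological replicates from individual mice. No group was kept in culture without the antibodies. Differences with stimulation below therefore set cells cultured for 4 h with antibodies against uncultured cells. Time in culture and receptor stimulation cannot be told apart in them.

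TGF-beta and activin are secreted ligands that bind a type II receptor, which then phosphorylates a type I receptor. The activated type I receptor phosphorylates Smad2 and Smad3, which join Smad4 and bind DNA in the nucleus. Smad7 blocks the receptor, and Ski and Skil (SnoN) are corepressors that bind the Smads, so the pathway holds its own brakes, and Smad7 and Skil are themselves known targets of Smad signalling. In T cells this pathway is known for inducing Foxp3 and for restraining effector responses, and Treg both produce TGF-beta and respond to it.

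Between 8208659 and 20247649 reads per library fell on genes, and the stimulated cKO libraries were the shallowest, at 8208659 to 10930376 reads. Levels are given as scaled TPM, transcript abundance scaled to 1000000 per library and divided by 1 factor per library (0.732 to 1.21) that sets the bulk of the genes level between libraries, and changes are log2 differences of (scaled TPM + 1) with their SE. Ikzf1 itself averaged 110 scaled TPM in WT and 37.9 in cKO Treg ex vivo, and 68.9 and 27.8 after stimulation, a log2 difference of -1.52 ± 0.11 ex vivo (limma, adjusted p = 5.45e-05) and -1.29 ± 0.11 after stimulation (adjusted p = 0.000161), with every cKO library below every WT library. Reads were counted over the whole gene, so exons that the deletion leaves in place still count. All 8 Treg and T cell markers were present, each at a group mean of at least 106 scaled TPM. Their summed level fell with stimulation without overlap, from 3378 to 3792 in WT and 3423 to 3652 in cKO libraries ex vivo to 2044 to 2249 and 1664 to 2218 after it. Foxp3 was at 147 to 189 ex vivo in both genotypes, and at 88.6 to 123 in WT and 153 to 240 in cKO libraries after stimulation. The 16 markers of B, NK, myeloid, platelet and red cells reached at most 4.97 scaled TPM in any group. The summed level of these 16 was 33.1 to 35.5 in stimulated WT libraries but 37.1 to 60.9 in stimulated cKO libraries, without overlap; 1 of the 16 had no read in WT stimulated libraries and none of the others was at 0 throughout a group. Both CD8 T cell markers were detected, at a summed level of 8.72 to 14.5 over the 12 libraries. The 3 stroma markers summed to 52.6 to 67.9 in WT and 45.9 to 49.9 in cKO libraries ex vivo, and to 43.1 to 44.5 and 29.9 to 39.1 after stimulation, so this sum was lower in cKO in both conditions and moved with stimulation. It was carried by Pecam1 (group means up to 57.9 scaled TPM), which T cells are also known to express. Over 1716 olfactory and vomeronasal receptor genes, which T cells are not known to use, the median level was 0.726 in WT and 0.746 in cKO scaled TPM ex vivo, and 0.871 and 1.18 after stimulation. Gm10800, a single gene, took 17.7% to 39.8% of all TPM in WT and 20.4% to 24.4% in cKO libraries ex vivo. After stimulation it took 32.6% to 44.4% (mean 38.1%) in WT and 42.9% to 55.9% (mean 48.8%) in cKO libraries, so its share was higher after stimulation in cKO without overlap, while the ranges overlap with stimulation in WT and between genotypes in both conditions. WT ex vivo library 3 was the only one with Xist at 179 TPM (0.624 to 1.36 in the others) and Ddx3y at 0.0970 TPM, so it came from a female animal and the other libraries from males. The part of these differences in the results below was not tested, and values without WT ex vivo library 3 stand beside the calls they change.

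All 10 genes were expressed and passed the filter of a group mean of at least 5 TPM, with 150 to 13226 reads per gene and library. In WT ex vivo Treg, Smad7 (113 ± 12.4 scaled TPM, SD, n = 3) and Tgfb1 (106 ± 9.14) were the most abundant, and their libraries overlapped. Ski (78.1 ± 8.25) and Skil (72.7 ± 8.56) followed, also overlapping, then Tgfbr2 (50.0 ± 7.72). Smad4 (36.6 ± 2.79) overlapped Smad3 (31.2 ± 4.36), which in turn overlapped Tgfbr1 (25.7 ± 3.01). Smad2 (21.0 ± 3.33) and Acvr1b (11.8 ± 0.663) were lowest, each separated from its neighbour above. The order changed most for Smad7, which ranked 1 of 10 in WT ex vivo Treg and 5 of 10 in cKO stimulated Treg at 33.5 ± 2.67, where its libraries overlapped those of Smad4 and Tgfbr2. Smad3 stood above Smad2 and Tgfbr1 in WT and cKO ex vivo and in WT stimulated Treg by its mean, and in cKO stimulated Treg it was below both, at 11.6 to 14.5, with no overlap with the 16.6 to 17.7 of Tgfbr1.

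**Figure D1:**
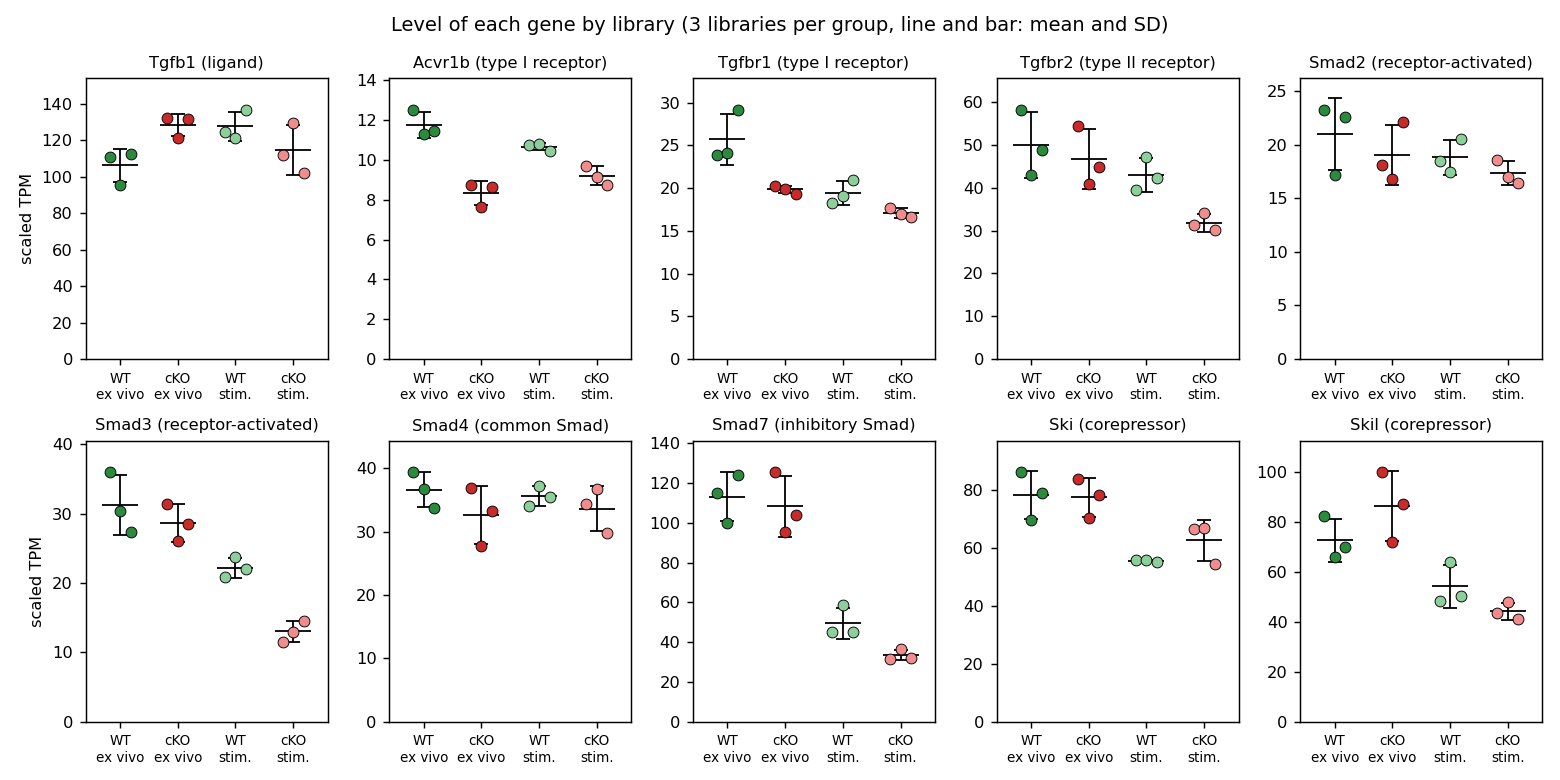
Each panel plots 1 gene, with scaled TPM on the vertical axis from 0 and the 4 groups on the horizontal axis. Points are libraries, and the line and bar give the mean and SD of 3 libraries. The Smad7 points fall from 95.4 or more ex vivo to 58.5 or less after stimulation, and the cKO stimulated points of Smad3 (11.6 to 14.5) lie below all its other points.

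Ex vivo, 2 of the 10 genes were lower in cKO than in WT Treg, the type I receptor genes Acvr1b and Tgfbr1, and none was higher; over all 13318 genes tested, 1.67% were lower and 3.62% higher. After stimulation, Smad3 and Smad7 were lower in cKO and none of the 10 was higher, against 3.63% lower and 3.30% higher over all genes. That background rests on 484 lower and 439 higher genes and turns with single libraries, from 160 lower and 238 higher without WT stimulated library 2 to 699 lower and 359 higher without cKO stimulated library 2. The ex vivo background, 222 lower and 482 higher, fell to as few as 90 and 235 without cKO ex vivo library 3. Stimulation lowered 5 of the 10 in WT Treg (Tgfbr1, Smad3, Smad7, Ski and Skil) and raised none, against 19.3% lower and 12.7% higher over all genes. In cKO Treg it lowered 5 (Tgfbr2, Smad3, Smad7, Ski and Skil) and raised none, against 26.5% lower and 17.3% higher, although with quantile normalization the change of Ski in cKO took the opposite sign. The cKO background, 3530 lower and 2305 higher genes, fell to 2689 and 1409 without cKO ex vivo library 1. The median log2 change of the 10 genes was -0.11, -0.18, -0.29 and -0.25 in these comparisons, beside -0.01, -0.03, 0.00 and -0.01 over all genes tested. The genotype effect differed between ex vivo and stimulated Treg for none of the 10 by limma's interaction term, against 1.10% of all genes (147 genes, and 50 to 206 when 1 library was left out). At an unadjusted p under 0.05 by that term there were 5 of the 10, beside 1926 of all 13318 genes. Limma's voom on recovered reads called 1 of the 10, Smad3, beside 395 of all genes. The WT stimulation calls of Tgfbr1, Smad3, Ski and Skil were each lost with a filter at 1 TPM, with no filter, with TPM as deposited and with quantile normalization, and that of Smad7 with none of these. Tgfb1 gained calls in the other direction: higher with stimulation in WT with median of ratios scaling (adjusted p = 0.0467) and quantile normalization (1.02e-05), and with quantile normalization also higher with stimulation in cKO (9.36e-05) and higher in cKO ex vivo (0.0276). Quantile normalization also called Ski higher in cKO after stimulation (0.00297). Smad2 and Smad4 passed the threshold in none of the comparisons, except Smad4 for stimulation in cKO with quantile normalization (adjusted p = 0.000835). The comparisons share groups (the WT ex vivo libraries serve both the ex vivo genotype and the WT stimulation comparison, for example), so a library that is high for a gene enters each of them. These are bulk libraries, in which fewer cells of a type and less RNA per cell cannot be told apart.

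The scale matters for changes of this size. With TPM as deposited, without the scaling, the median over all genes was 0.21 for the genotype effect ex vivo, -0.30 after stimulation, 0.18 for stimulation in WT, -0.31 in cKO and -0.52 for the interaction. The share of calls that were higher then became 95.2% instead of 68.5%, 22.5% instead of 47.6%, 60.5% instead of 39.6%, 11.9% instead of 39.5% and 8.96% instead of 40.8%. Quantile normalization moved the share for stimulation in WT to 51.8%. Changes below are relative to the bulk of the genes.

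**Figure D2:**
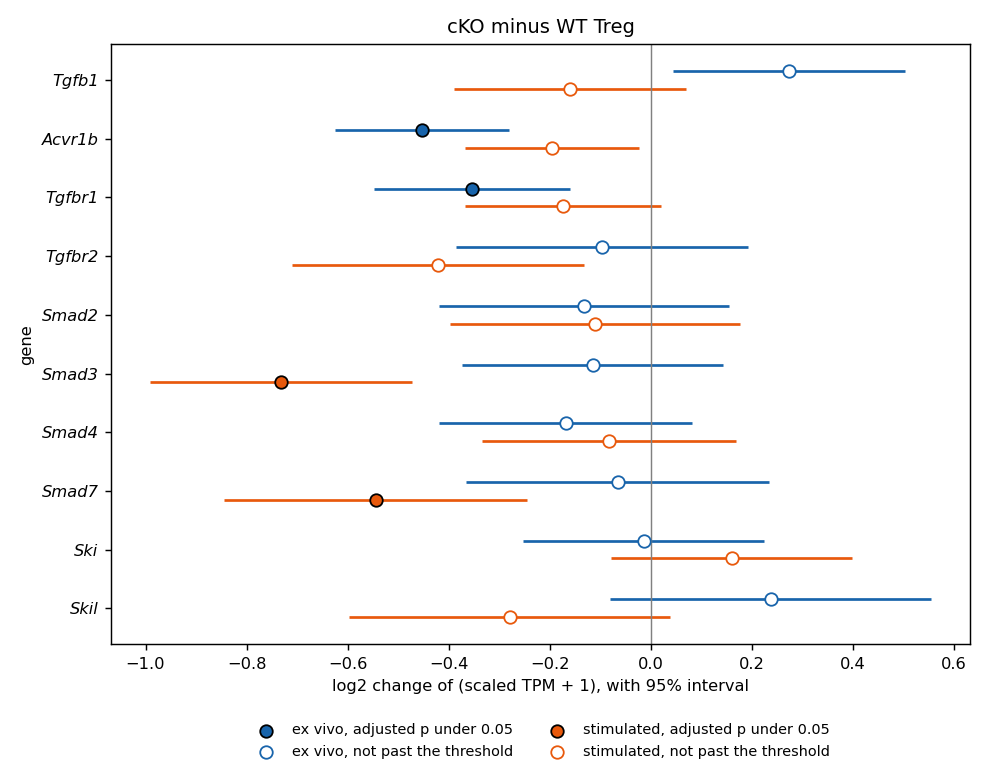
The horizontal axis is the log2 difference of (scaled TPM + 1), cKO minus WT, and each row is 1 gene, with blue for ex vivo and orange for stimulated Treg. Points are limma estimates with 95% intervals, filled where the adjusted p was under 0.05. The filled points are Acvr1b (-0.45) and Tgfbr1 (-0.35) ex vivo and Smad3 (-0.73) and Smad7 (-0.54) after stimulation.

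Promoter sequences are shown for Smad3, the gene with the largest genotype difference of the 10, and for Acvr1b and Tgfbr1, the pair lower in ex vivo cKO Treg, because Ikaros is a DNA-binding protein whose known core motif is GGGAA. Each is the 250 bases before the RefSeq start in GRCm38.p6, 5′ to 3′ on the gene's strand, and capitals mark GGGAA or its reverse complement TTCCC. Each stretch also matched mouse build NCBIM37 (mm9), the build of the expression table, exactly once. Smad3 lies on the minus strand, GRCm38.p6 chr9:63757995-63758244 (mm9 chr9:63605802-63606051), and its RefSeq start coincides with the mm9 GENCODE gene start. Acvr1b lies on the plus strand, GRCm38.p6 chr15:101173822-101174071 (mm9 chr15:101004253-101004502). Tgfbr1 lies on the plus strand, GRCm38.p6 chr4:47352972-47353221 (mm9 chr4:47365844-47366093).
Smad3: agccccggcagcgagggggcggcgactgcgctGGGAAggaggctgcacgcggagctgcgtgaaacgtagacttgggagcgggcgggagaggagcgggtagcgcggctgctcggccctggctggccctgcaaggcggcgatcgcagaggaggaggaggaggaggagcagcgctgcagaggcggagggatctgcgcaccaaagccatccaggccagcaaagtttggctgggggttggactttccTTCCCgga
Acvr1b: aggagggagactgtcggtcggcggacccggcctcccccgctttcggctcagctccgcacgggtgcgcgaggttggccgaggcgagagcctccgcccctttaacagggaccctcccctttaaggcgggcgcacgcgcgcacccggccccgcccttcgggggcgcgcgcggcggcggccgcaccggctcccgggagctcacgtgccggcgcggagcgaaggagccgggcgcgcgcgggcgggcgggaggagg
Tgfbr1: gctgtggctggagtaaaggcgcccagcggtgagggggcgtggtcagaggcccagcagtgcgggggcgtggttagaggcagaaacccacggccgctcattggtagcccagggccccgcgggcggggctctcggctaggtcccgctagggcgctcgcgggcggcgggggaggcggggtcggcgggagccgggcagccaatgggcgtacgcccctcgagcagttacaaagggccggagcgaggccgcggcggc

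The Smad3 stretch held the motif 2 times, as GGGAA at position -218 and as TTCCC at position -8, counted from the base before the start as -1. The Acvr1b and Tgfbr1 stretches held it 0 times. GGGAA or TTCCC is present in 56.2% of the 32851 promoter stretches of this length in the same table, which belong to 27025 gene names. CAGAC or GTCTG, a Smad binding element searched on both strands in the same way, is present in 42.2% of them and in none of the 3 shown. Of the 10 genes, 6 had an entry; Ski and Tgfb1 held neither motif, Tgfbr2 held CAGAC 1 time, and a further Tgfbr1 start, 32994 bases inside the mm9 gene, held CAGAC 1 time. These counts describe letters in a window and say nothing of binding.

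Tgfb1, the ligand gene (mm9 chr7:26472021-26490096, plus strand), was at 111, 95.7 and 112 scaled TPM in the WT ex vivo libraries and at 132, 121 and 131 in the cKO ex vivo libraries. All 3 cKO values were above all 3 WT values, but the log2 difference of 0.27 ± 0.10 did not pass the threshold (adjusted p = 0.189). Stimulated WT libraries held 125, 121 and 137 and stimulated cKO libraries 112, 129 and 102, which overlap, with a log2 difference of -0.16 ± 0.10 (adjusted p = 0.381). The stimulation effect was 0.26 ± 0.10 in WT (adjusted p = 0.0761), where the groups do not overlap, and -0.17 ± 0.10 in cKO (adjusted p = 0.207). The result depended on the scaling: quantile normalization gave calls of 0.28 for genotype ex vivo (adjusted p = 0.0276), 0.76 for stimulation in WT (1.02e-05) and, with the sign turned, 0.53 for stimulation in cKO (9.36e-05), and median of ratios scaling gave a call of 0.29 for stimulation in WT (0.0467). Without cKO stimulated library 2 the fall in cKO passed (-0.30, adjusted p = 0.0412). The interaction was -0.43 ± 0.15 on the log2 scale (95% interval -0.76 to -0.11, unadjusted p = 0.0136, adjusted p = 0.202). Tgfb1 transcript ranged from 95.7 to 137 scaled TPM across all 12 libraries.

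Acvr1b encodes ALK4, the type I receptor for activin (mm9 chr15:101004556-101043032, plus strand). It was at 12.5, 11.3 and 11.5 scaled TPM in WT ex vivo and at 8.72, 7.63 and 8.63 in cKO ex vivo Treg. The groups do not overlap, and the level was lower in cKO by a log2 difference of -0.45 ± 0.08 (adjusted p = 0.00792), 0.730 times the WT level on the scale of (scaled TPM + 1). In stimulated Treg, WT libraries held 10.8, 10.8 and 10.5 and cKO libraries 9.70, 9.15 and 8.74. These do not overlap either, with a log2 difference of -0.19 ± 0.08 (95% interval -0.37 to -0.02, adjusted p = 0.163). Stimulation gave -0.13 ± 0.08 in WT (adjusted p = 0.236) and 0.13 ± 0.08 in cKO (adjusted p = 0.195). The stimulated libraries thus lie between the ex vivo WT and ex vivo cKO libraries. The study's text names Acvr1b among genes lower in ex vivo cKO Treg, from these same libraries, so its difference here is not independent evidence. The ex vivo call held when each of the 12 libraries was left out in turn (adjusted p from 0.00937 to 0.0309) and was at 0.0286 without WT ex vivo library 3, but it was lost with a filter at 1 TPM (0.642), with no filter (0.654), with TPM as deposited (0.580) and with only the 6 ex vivo libraries (0.0572).

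Tgfbr1 encodes ALK5, the type I receptor for TGF-beta (mm9 chr4:47366094-47427803, plus strand). WT ex vivo libraries held 23.8, 24.1 and 29.2 scaled TPM and cKO ex vivo libraries 20.3, 19.9 and 19.4. Every cKO library was lower than every WT library, by a log2 difference of -0.35 ± 0.09 (adjusted p = 0.0433). WT ex vivo library 3, the female library, was the highest of the 12. Without it the difference was -0.26 (adjusted p = 0.120), and the call was lost when any of the 12 libraries other than cKO stimulated library 3 was left out (adjusted p from 0.0516 to 0.139), and under 6 of 11 other settings (0.0615 to 0.827). The stimulated WT libraries were at 18.2, 19.1 and 20.9 and cKO libraries at 17.7, 17.0 and 16.6, again without overlap, with a log2 difference of -0.17 ± 0.09 (adjusted p = 0.258). Stimulation lowered Tgfbr1 in WT Treg by -0.38 ± 0.09 (adjusted p = 0.00708; -0.28 and 0.0246 without WT ex vivo library 3). In cKO Treg, which started lower, the stimulation difference was -0.20 ± 0.09 (adjusted p = 0.0818), past the threshold with a filter at 1 TPM (-0.72, adjusted p = 0.0256) and with no filter (-0.71, 0.0254), and the interaction was 0.18 ± 0.12 (adjusted p = 0.538).

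Tgfbr2, the type II receptor that binds TGF-beta first (mm9 chr9:115993415-116084383, minus strand), was at 58.2, 42.9 and 48.9 scaled TPM in WT ex vivo and 54.5, 40.9 and 44.8 in cKO ex vivo libraries. The values overlap, with a log2 difference of -0.10 ± 0.13 (95% interval -0.39 to 0.19). In stimulated Treg, WT libraries held 39.5, 47.3 and 42.2 and cKO libraries 31.2, 34.0 and 30.1. These do not overlap, and the log2 difference of -0.42 ± 0.13 missed the threshold (adjusted p = 0.0833); with voom on recovered reads it passed (-0.43, adjusted p = 0.0255, of a range from 0.0255 to 0.310 over 23 alternatives). Stimulation lowered Tgfbr2 in cKO Treg by -0.53 ± 0.13 (adjusted p = 0.00818), a call lost with quantile normalization (0.277). In WT Treg the stimulation difference was -0.21 ± 0.13 (adjusted p = 0.253). The difference between these stimulation effects, -0.33 ± 0.19, was not past the threshold (adjusted p = 0.445).

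Of the Smads that TGF-beta and activin receptors phosphorylate, Smad3 changed and Smad2 passed no test. Smad3 (mm9 chr9:63494574-63605801, minus strand) was at 36.0, 30.4 and 27.4 scaled TPM in WT ex vivo and 31.4, 26.0 and 28.6 in cKO ex vivo Treg. These overlap, with a log2 difference of -0.11 ± 0.12 (95% interval -0.37 to 0.14, adjusted p = 0.698). With stimulation, WT libraries held 20.9, 23.7 and 22.1 and cKO libraries 11.6, 12.9 and 14.5. The highest cKO value is below the lowest WT value. The log2 difference was -0.73 ± 0.12 (adjusted p = 0.00416), 0.602 times the WT level on the scale of (scaled TPM + 1). Smad3 fell with stimulation in both genotypes, by -0.47 ± 0.12 in WT (adjusted p = 0.0112) and by -1.08 ± 0.12 in cKO Treg (adjusted p = 5.16e-05). The difference between these falls was -0.62 ± 0.17 (95% interval -0.98 to -0.25, unadjusted p = 0.00345, adjusted p = 0.110), and it passed only with voom on recovered reads (-0.66, adjusted p = 0.0271, of a range from 0.0271 to 0.623 over 22 alternatives). The genotype call after stimulation held with each library left out (adjusted p from 0.00341 to 0.0252) and was lost with a filter at 1 TPM (0.0926) and with no filter (0.0824). The study's text names Smad3 among genes lower in stimulated cKO Treg, from these same libraries, so the call is not independent evidence.

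Smad2 (mm9 chr18:76401234-76465385, plus strand) had 23.3, 17.2 and 22.5 scaled TPM in WT and 18.1, 16.8 and 22.1 in cKO libraries ex vivo, and 18.4, 17.4 and 20.5 in WT and 18.5, 17.0 and 16.4 in cKO libraries after stimulation. No pair of groups was separated, and the log2 differences between genotypes were -0.13 ± 0.13 ex vivo (95% interval -0.42 to 0.15) and -0.11 ± 0.13 after stimulation (-0.40 to 0.18). Smad4, the partner shared by all activated Smads (mm9 chr18:73798663-73863434, minus strand), had 39.4, 36.7 and 33.8, then 36.9, 27.7 and 33.3, then 34.1, 37.2 and 35.4, and then 34.3, 36.8 and 29.8 scaled TPM in the same order of groups. These too overlapped in every comparison, with log2 differences between genotypes of -0.17 ± 0.11 ex vivo (95% interval -0.42 to 0.08) and -0.08 ± 0.11 after stimulation (-0.33 to 0.17).

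Smad7, the inhibitory Smad (mm9 chr18:75527183-75555589, plus strand), showed the largest response to stimulation among the 10 genes. WT ex vivo libraries held 115, 99.9 and 124 scaled TPM and cKO ex vivo libraries 126, 95.4 and 104, which overlap (log2 difference -0.07 ± 0.14, 95% interval -0.36 to 0.23). After stimulation WT libraries held 45.2, 58.5 and 45.1 and cKO libraries 31.7, 36.6 and 32.2. Both stimulated groups lie well below both ex vivo groups, and every cKO stimulated library is below every WT stimulated library. Smad7 fell by -1.18 ± 0.14 in WT (adjusted p = 9.3e-05) and by -1.66 ± 0.14 in cKO Treg (adjusted p = 7.93e-06), and these falls held under all 23 alternatives. The genotype difference after stimulation was -0.54 ± 0.14 (adjusted p = 0.0373). That call is less firm: it was lost when 8 of the 12 libraries were left out in turn (adjusted p from 0.0509 to 0.153) and remained only without WT ex vivo library 2, cKO ex vivo library 1 or 2, or cKO stimulated library 2. It was also lost under 6 of 11 other settings (adjusted p from 0.0503 to 0.263), and was -0.51 (adjusted p = 0.0521) without WT ex vivo library 3. The interaction was -0.48 ± 0.19 (unadjusted p = 0.0300, adjusted p = 0.283).

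The corepressor genes Ski and Skil both fell with stimulation in both genotypes, Ski in cKO with the exception given here. Ski (mm9 chr4:154528184-154596701, minus strand) was at 85.9, 69.5 and 78.9 scaled TPM in WT ex vivo and 83.6, 70.1 and 78.1 in cKO ex vivo libraries, nearly the same values (log2 difference -0.01 ± 0.11). Stimulated WT libraries were at 55.6, 55.8 and 55.2 and stimulated cKO libraries at 66.4, 66.7 and 54.2, which overlap (0.16 ± 0.11, adjusted p = 0.393; with quantile normalization 0.36, called at 0.00297). The fall was -0.48 ± 0.11 in WT (adjusted p = 0.00627). In cKO it was -0.31 ± 0.11 (adjusted p = 0.0405), a call lost without any 1 of 8 libraries (adjusted p from 0.0503 to 0.251, -0.26 and 0.0917 without WT ex vivo library 3, and a log2 difference from -0.40 to -0.16 over all 12; it held without WT ex vivo library 1 or 2, cKO ex vivo library 2 or cKO stimulated library 2), with TPM as deposited (0.0524), with median of ratios scaling (0.0792) and with only the 6 cKO libraries (0.0898), and of opposite sign with quantile normalization (0.22, adjusted p = 0.0134).

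Skil (mm9 chr3:30993980-31021499, plus strand) was at 82.3, 65.9 and 69.9 scaled TPM in WT ex vivo and 99.9, 71.9 and 87.1 in cKO ex vivo libraries, with overlap (0.24 ± 0.14, adjusted p = 0.454). After stimulation WT libraries held 48.3, 64.2 and 50.2 and cKO libraries 43.7, 47.8 and 41.2, the cKO values all lower by a narrow margin (-0.28 ± 0.14, adjusted p = 0.268). Skil fell by -0.94 ± 0.14 in cKO Treg (adjusted p = 0.000496), a call that held under all 23 alternatives. In WT Treg the fall was -0.42 ± 0.14 (adjusted p = 0.0453), and it was lost without WT ex vivo library 1 or 3, cKO ex vivo library 3, WT stimulated library 1 or 3, or cKO stimulated library 1 (adjusted p from 0.0610 to 0.154, with -0.44 and 0.0826 without WT ex vivo library 3). It was also lost under 7 of 11 other settings. With quantile normalization it shrank to -0.067 (adjusted p = 0.683) and with TPM as deposited to -0.23 (0.514), a filter at 1 TPM gave -0.68 (0.189) and no filter -0.65 (0.211), and no trend (0.0567), the replicate block (0.0700) and only the 6 WT libraries (0.0622) left it at -0.42. The interaction was -0.52 ± 0.20 (unadjusted p = 0.0279, adjusted p = 0.275).

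**Figure D3:**
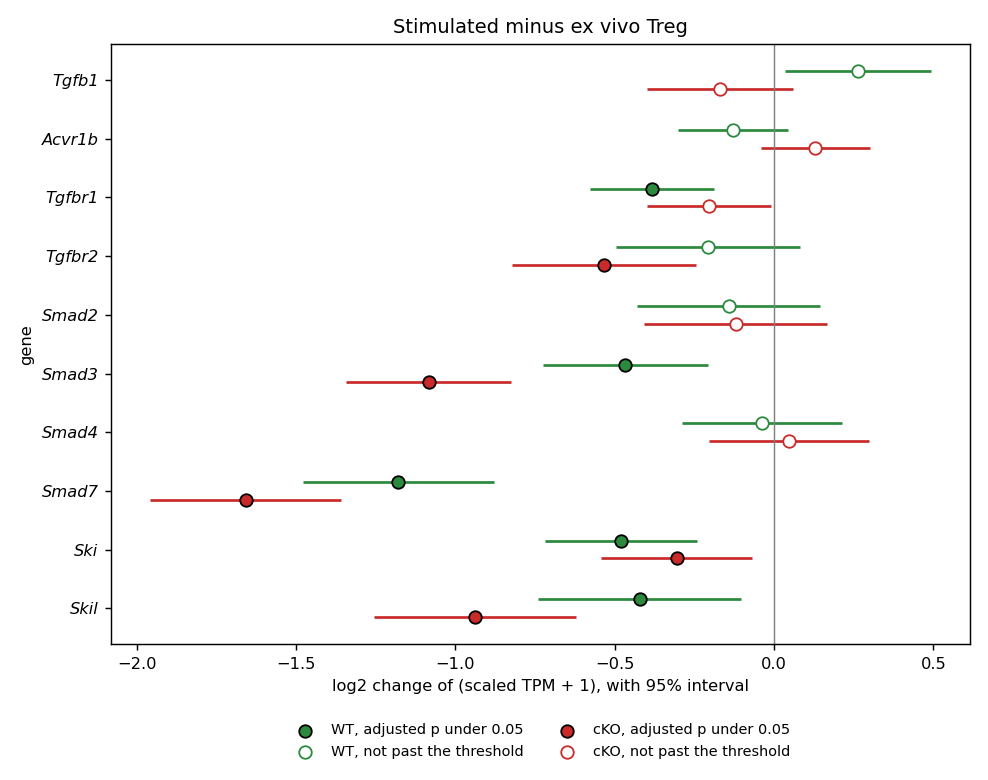
The horizontal axis is the log2 difference of (scaled TPM + 1), stimulated minus ex vivo, and each row is 1 gene, with green for WT and red for cKO Treg. Points are limma estimates with 95% intervals, filled where the adjusted p was under 0.05. Smad7 (-1.18 and -1.66), Smad3 (-0.47 and -1.08), Skil (-0.42 and -0.94) and Ski (-0.48 and -0.31, the latter of opposite sign with quantile normalization) are filled in both genotypes.

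Ratios of related genes within a library do not depend on the scaling between libraries. The following 2 ratios were chosen after the values were seen and carry no test. Smad3 and Smad2 bind the same receptors and receive the same phosphorylation, and their ratio was 1.55, 1.77 and 1.21 in WT ex vivo and 1.74, 1.55 and 1.29 in cKO ex vivo libraries. It was 1.13, 1.36 and 1.07 in WT stimulated and 0.623, 0.761 and 0.886 in cKO stimulated libraries. Smad3 transcript thus exceeded Smad2 transcript in 9 of the 12 libraries and was below it in the 3 cKO stimulated ones, with a mean log2 difference in ratio between genotypes of -0.66 after stimulation (-0.78 to -0.53 when libraries were left out) and 0.02 ex vivo (-0.13 to 0.14). The ratio of the corepressors Skil and Ski was 0.958, 0.948 and 0.885 in WT ex vivo and 1.20, 1.02 and 1.12 in cKO ex vivo libraries. It was 0.868, 1.15 and 0.909 in WT stimulated and 0.658, 0.717 and 0.760 in cKO stimulated libraries. The cKO ratio was above every WT ratio ex vivo (log2 difference 0.26) and below every WT ratio after stimulation (-0.45), although neither gene alone differed between genotypes past the threshold, except Ski after stimulation with quantile normalization.

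**Figure D4:**
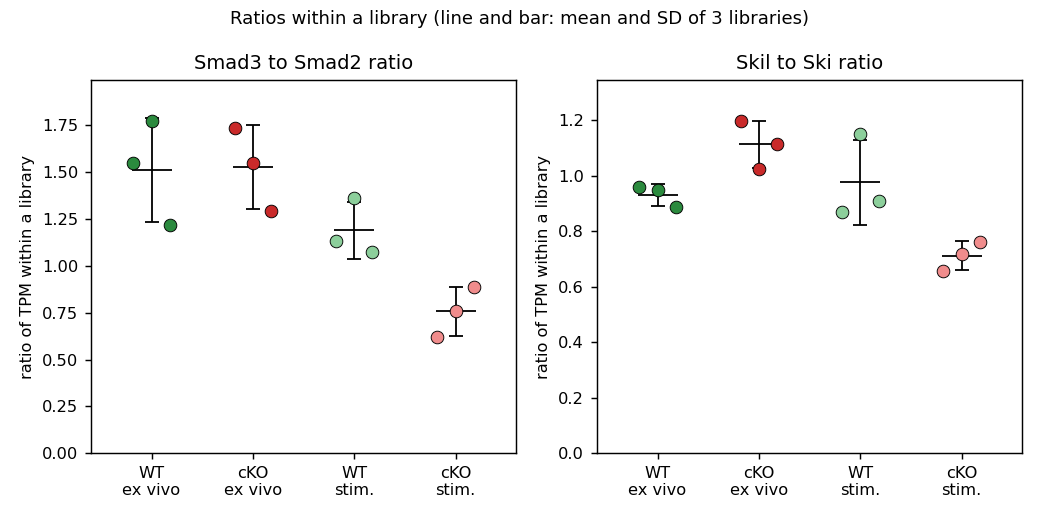
The vertical axes, which start at 0, give the ratio of 2 TPM values within a library, Smad3 to Smad2 on the left and Skil to Ski on the right, for the 4 groups. Points are libraries, and the line and bar give the mean and SD of 3 libraries. The cKO stimulated points are the lowest of each panel, at 0.623 to 0.886 and 0.658 to 0.760.

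The wider pathway was covered by 66 further genes, of which 65 were in the table by name and 39 passed the filter. Ex vivo, 7 of the 39 were higher and 1 lower in cKO Treg, against 3.62% higher and 1.67% lower over all genes. The 7 were Bmpr2 (0.85 ± 0.13, adjusted p = 0.00490), a type II receptor for BMP ligands, the cell cycle inhibitor Cdkn1a (1.07 ± 0.17, 0.00535), Furin (0.69 ± 0.12, 0.00923), the protease that cleaves the TGF-beta precursor, the integrin chain Itgav (0.87 ± 0.16, 0.00979), which helps release latent TGF-beta, the corepressor Tgif2 (0.61 ± 0.11, 0.0112), the feedback inhibitor Pmepa1 (0.60 ± 0.12, 0.0160) and the coreceptor Tgfbr3 (0.63 ± 0.14, 0.0262). The lower gene was Trim33 (-0.36 ± 0.09, 0.0406), a ubiquitin ligase that acts on Smad4, whose call was lost under 7 of 11 other settings and without any 1 of 10 libraries. The Tgfbr3 call was lost under 5 of 11 other settings (both filters, meaning a filter at 1 TPM and none, quantile normalization, the replicate block and only the 6 libraries) and without any 1 of 4 libraries, that of Pmepa1 under 3 (both filters and TPM as deposited) and without any 1 of 3, that of Tgif2 under 2 (both filters) and without any 1 of 2, and that of Furin under 3 (both filters and TPM as deposited, adjusted p = 0.0563). Without WT ex vivo library 3 the values were 0.67 for Tgfbr3 (adjusted p = 0.0595), 0.55 for Tgif2 (0.0505), 0.61 for Pmepa1 (0.0510) and -0.36 for Trim33 (0.101), none of them called. With a filter at 1 TPM or no filter, none of the wider pathway genes was called for genotype in either condition (65 tested), with limma's adjusted p of the Bmpr2 difference ex vivo then as high as 0.328.

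After stimulation, 2 of the 39 were higher in cKO, Bmpr2 (1.24 ± 0.13, adjusted p = 0.000391) and Tgfbr3 (0.80 ± 0.14, 0.00654), and 1 was lower, the transcriptional inhibitor Id3 (-0.58 ± 0.15, 0.0449), against 3.30% and 3.63% over all genes; the Id3 call was lost under 6 of 11 other settings and without any 1 of 10 libraries. The study's text also names Id3 among genes lower in stimulated cKO Treg, from these same libraries, so the Id3 call is not independent evidence. Both stimulated calls of Bmpr2 and Tgfbr3 were lost with TPM as deposited (adjusted p = 0.0538 and 0.132). Bmpr2 and Tgfbr3 were higher in cKO in both conditions in the fit described here, Tgfbr3 ex vivo with the losses given above. Bmpr2 averaged 10.95 and 20.6 scaled TPM in WT and cKO ex vivo and 20.6 and 50.7 in WT and cKO stimulated Treg. The only one of the 39 called for the interaction (1.10% over all genes) was the corepressor Tgif1 (-0.89 ± 0.19, adjusted p = 0.0498), which averaged 131 and 177 in WT and cKO ex vivo and 83.9 and 60.8 in WT and cKO stimulated Treg. The Tgif1 interaction call was lost under 8 of 10 other settings and without any 1 of 10 libraries, with adjusted p from 0.00567 to 0.593 over these 22 alternatives and 0.0957 without WT ex vivo library 3. Its fall with stimulation was -0.64 ± 0.13 in WT and -1.53 ± 0.13 in cKO Treg; the WT call was lost under 4 of 11 other settings (both filters, TPM as deposited and quantile normalization, adjusted p up to 0.203).

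Stimulation raised 11 and lowered 10 of the 39 in WT, and raised 7 and lowered 13 in cKO Treg. Over all genes the shares were 12.7% and 19.3% in WT and 17.3% and 26.5% in cKO Treg. In both genotypes 5 of them rose and 10 fell, and none was called in opposite directions. The share of all genes called the same way in both genotypes was not computed, so these counts are not read as a trait of the pathway. The genes that rose in both included the ligand-activating molecules Itgb8 (1.71 ± 0.13 in WT and 1.88 ± 0.13 in cKO) and Lrrc32 (0.61 ± 0.17 and 0.87 ± 0.17), which encodes GARP, the surface anchor of latent TGF-beta on Treg. The Itgb8 calls held under all 23 alternatives, whereas those of Lrrc32 were lost under 3 of 11 other settings in each genotype (both filters and TPM as deposited, adjusted p up to 0.585 in WT and 0.515 in cKO), and in WT without WT stimulated library 3 or WT ex vivo library 3 (0.50, adjusted p = 0.0610). Bmpr2 also rose (0.85 ± 0.13 and 1.24 ± 0.13; lost with both filters), and Tgfbr3 (-0.88 ± 0.14 and -0.71 ± 0.14) and the receptor-associated Strap fell (-0.49 ± 0.09 and -0.65 ± 0.09; lost under 3 of 11 other settings in WT). Itgb8 averaged 7.39 and 8.27 scaled TPM in WT and cKO ex vivo and 26.4 and 33.3 in WT and cKO stimulated Treg. Smad5, which BMP receptors phosphorylate, rose as well (0.39 ± 0.07, adjusted p = 0.00152, and 0.45 ± 0.07, adjusted p = 0.00055), although these calls were lost with both filters, and in cKO with TPM as deposited as well, and 2 alternatives turned its sign in cKO. Known targets of Smad or BMP signals moved both ways. Beside Smad7 and Skil, those of the 39 that fell in both genotypes included Id2 (-1.17 ± 0.15 and -1.12 ± 0.15), Id3 (-0.95 ± 0.15 and -1.05 ± 0.15) and Itgae (-0.86 ± 0.17 and -1.22 ± 0.17), which encodes CD103. Pmepa1 rose in both (0.96 ± 0.12, adjusted p = 0.000144, and 0.62 ± 0.12, adjusted p = 0.00204), calls lost with both filters and in cKO also with TPM as deposited (adjusted p up to 0.111 in WT and 0.816 in cKO), and Cdkn1a fell in cKO (-0.84 ± 0.17, adjusted p = 0.00275) and was at -0.20 ± 0.17 in WT (adjusted p = 0.406). The corepressors Tgif1 and Tgif2 (-0.94 ± 0.11 and -1.67 ± 0.11) and the ubiquitin ligase Smurf2 (-0.63 ± 0.08 and -0.70 ± 0.08) fell as well, Smurf2 in WT not with TPM as deposited (adjusted p = 0.142). The ligand genes Tgfb2, Tgfb3, Inha, Inhba, Inhbb and Nodal averaged at most 5.33 scaled TPM in any group and Gdf11 at most 8.47, beside 106 or more for Tgfb1 in every group.

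**Figure D5:**
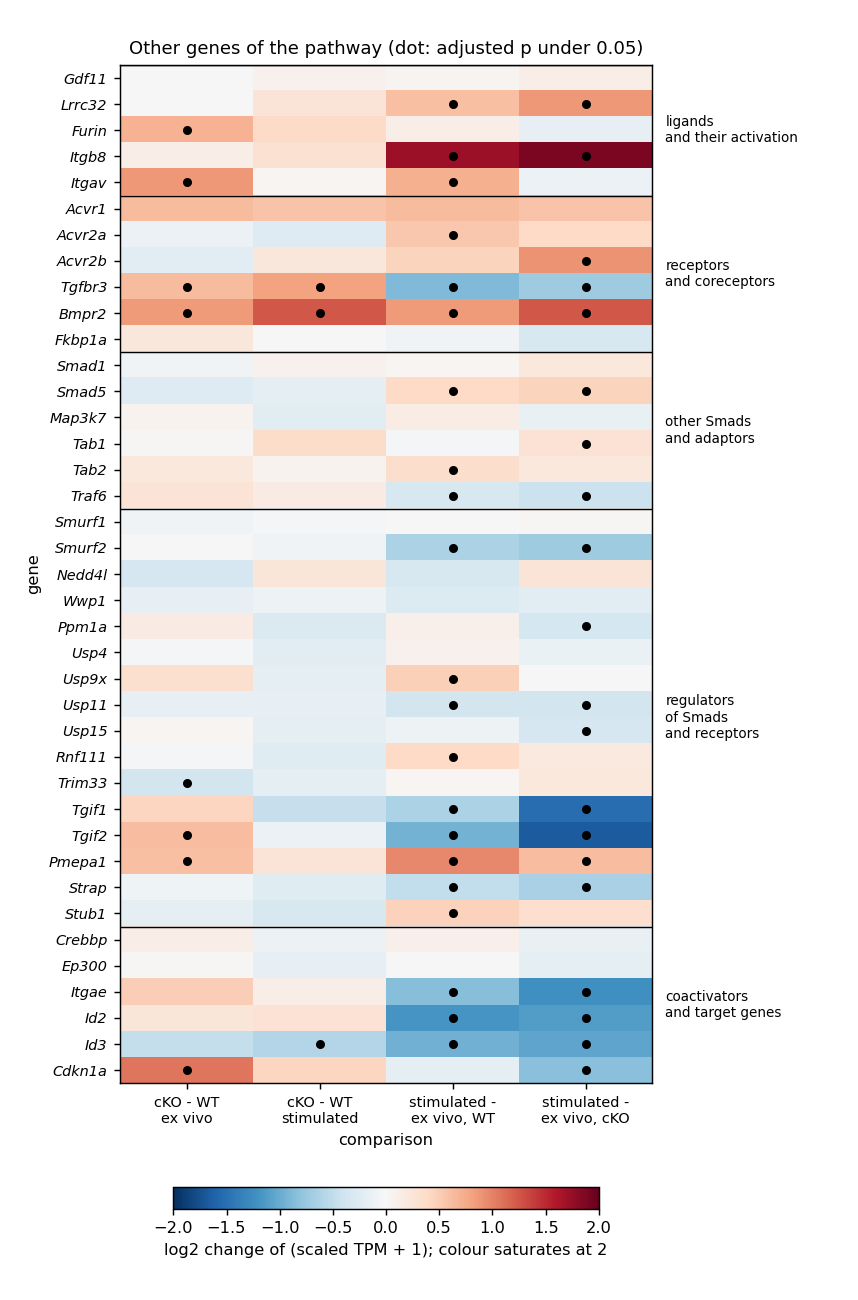
Rows are the 39 tested genes of the wider pathway in their 5 lists and columns are the 4 comparisons; colour gives the log2 difference of (scaled TPM + 1), red for higher and blue for lower, and dots mark an adjusted p under 0.05. Bmpr2 and Tgfbr3 carry dots in both genotype columns, and Itgb8 is the deepest red of the stimulation columns at 1.71 and 1.88.

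Genes chosen as a check of stimulation behaved in more than one way. Egr2 (1.48 ± 0.15 in WT and 1.31 ± 0.15 in cKO), Myc (0.61 ± 0.15 and 0.64 ± 0.15) and Tnfrsf9 (1.85 ± 0.16 and 2.26 ± 0.16), which T cell receptor signals are known to induce, rose in both genotypes. The Myc calls were lost with both filters, in WT also without WT stimulated library 2, and in cKO also with TPM as deposited (adjusted p up to 0.557 and 0.850), and the Egr2 call in cKO with both filters (up to 0.0598). Cd69, an early activation marker, fell in both (-1.36 ± 0.20 and -1.71 ± 0.20), and Nr4a1, an immediate early gene, fell in WT Treg (-0.55 ± 0.17, adjusted p = 0.0307), a call lost under 5 of 11 other settings, 1 of which turned its sign (0.25), and without any 1 of 5 libraries, among them WT ex vivo library 3 (-0.40, adjusted p = 0.109). Nr4a1 was already at 1022 scaled TPM in WT ex vivo and 591 in cKO ex vivo Treg, with 691 and 668 after stimulation.

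Across the 12 libraries and 13308 other tested genes, the pattern most like that of Smad3 was that of Itga4 (Pearson r = 0.983 on log2 scaled TPM), followed by Sesn1 (0.979) and Ifnar1 (0.976). Those most like Acvr1b were Kpna4 (0.915), Tubb2a (0.902) and Fntb (0.896). These are descriptions over libraries that share the same 4 groups and the same scaling factors, and they are the highest of 13308 values for each gene.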

How the data were processed

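RNA from 12 Treg libraries was sequenced as strand-specific, ribosomal RNA depleted paired ends. Per the labels and the study's methods, the authors aligned reads to mm9 with STAR 2.6.0c and counted exon reads by strand with HTSeq 0.6.1. The deposited table holds an expression signal in TPM for 36222 genes, summing to 1000000 per library, and the authors' log2 of the TPM plus an offset that is the TPM of 1 read of that gene. Dividing each TPM by this offset (2 to the log2 value, minus the TPM) gave whole reads for 99.9977% of values (within 0.01). A further table of the authors' own edgeR comparisons (log2 fold changes, F, p and FDR) was not used. The unit was TPM, so the count model named in the methods was not the main test.

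TPM were scaled by trimmed means of M-values (30% and 5% trimmed), and log2(scaled TPM + 1) of the 13318 genes that averaged 5 TPM or more in some group was fitted in limma 3.58.1 (R 4.3.3; mean-variance trend, 12 libraries, 4 group means, two-sided, Benjamini-Hochberg over all tested genes, called under 0.05). The script was tested on simulated data. Sequenced fragments carried no molecular identifiers. Promoters came from RefSeq (GRCm38.p6), positions from GENCODE vM1 (mm9).

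The genes, the lists and the filter of 5 TPM were chosen with earlier results of these data known. An earlier analysis of them had found that most genes between 1 and 5 TPM lie in the range of silent receptor genes and shift the scaling. Named in the text are the 10 genes, the targeted gene, other pathway genes called in a comparison (up to 8 by smallest adjusted p; Lrrc32, Smad5, Cdkn1a for stimulation and the ligand genes not called fall outside this and were chosen after their values were seen), the stimulation check genes and the 3 genes most like Smad3 and Acvr1b. Alternatives were other filters, pseudocounts of 0.5 and 0.1, other scalings, no trend, the compared libraries alone, a replicate block, voom on recovered reads and leaving out each library.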

Additional observations from a re-analysis of the deposited data

Results flagged for a closer look

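Acvr1b values differed in opposite directions with stimulation in the 2 genotypes, although neither effect passed the threshold (limma, WT -0.13, adjusted p = 0.236; cKO 0.13, adjusted p = 0.195): every stimulated WT library lay below every ex vivo WT library, and every stimulated cKO library above every ex vivo cKO library. The interaction was 0.26 ± 0.11 on the log2 scale and did not pass the threshold (limma, adjusted p = 0.317). With TPM as deposited it was -0.22. The cKO effect turned to -0.36 with a filter at 1 TPM, -0.35 with no filter and -0.16 with TPM as deposited, and the WT effect to 0.054 with TPM as deposited, so these signs depend on the processing.

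The Skil to Ski ratio differed between genotypes in opposite directions, with every cKO library above every WT library ex vivo and below every WT library after stimulation. The log2 difference in ratio changed by -0.70 from ex vivo to stimulated Treg. This change was not tested, and the ratio was chosen after the values were seen.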

How the results depend on the processing

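The genes called numbered 2 ex vivo and 2 after stimulation for genotype, 5 in WT and 5 in cKO for stimulation, and 0 for the interaction. A filter at 1 TPM and no filter (33873 and 36222 genes tested instead of 13318) left 0 and 0 calls for genotype and 1 for stimulation in WT. Both kept all 5 calls for stimulation in cKO and added Tgfbr1 (limma, adjusted p = 0.0256 and 0.0254). TPM as deposited left 0 and 1 for genotype and 1 for stimulation in WT, and lost Ski among the 5 in cKO (limma, adjusted p = 0.0524). Fitting only the 6 libraries compared left 0 ex vivo and 1 after stimulation, a fit with no trend 1 and 1, and the replicate block 1 and 1; the block also gave 4, 5 and 0 in the other comparisons. Correlations of deviations between same-numbered libraries ran from -0.208 to 0.257 (median 0.0022, against 0.0021 for other pairs); they were 0.149, 0.257 and 0.078 between genotypes ex vivo. Since not every pair exceeded 0.1 and the labels tie no number to a shared animal, the numbers were not treated as pairing. Quantile normalization gave 2 calls for stimulation in WT, Smad7 lower, the only one remaining of the 5, and Tgfb1 higher (adjusted p = 1.02e-05), and voom on recovered reads gave 1 for the interaction. Leaving out 1 library gave 1 to 2, 1 to 2, 4 to 5, 4 to 6 and 0 to 0 calls. Causes of these shifts were not tested. Over all genes, calls for genotype fell from 704 and 923 to 57 and 68 with a filter at 1 TPM, and those for the interaction from 147 to 0 with that filter and with none (2406 and 2688 genes at an unadjusted p under 0.05 by limma).

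Signs turned mostly for small changes. With TPM as deposited they were, for genotype ex vivo, Tgfbr2 0.14, Smad2 0.094, Smad3 0.12, Smad4 0.063, Smad7 0.17 and Ski 0.22, after stimulation Ski -0.13, for stimulation in WT Acvr1b 0.054, Smad2 0.047 and Smad4 0.15, in cKO Acvr1b -0.16 and Smad4 -0.27, and for the interaction Acvr1b -0.22, Tgfbr1 -0.33, Smad2 -0.48, Smad4 -0.43 and Ski -0.35. With a filter at 1 TPM and with no filter they were, respectively, Ski -0.14 and -0.14 after stimulation, Acvr1b -0.36 and -0.35 and Smad4 -0.49 and -0.48 in stimulated against ex vivo cKO, and for the interaction Tgfbr1 -0.091 and -0.11, Smad2 -0.25 and -0.27, Smad4 -0.20 and -0.21, and Ski -0.11 and -0.13, with Acvr1b at -0.0095 with no filter. With quantile normalization they were Ski 0.023 ex vivo, Tgfb1 0.052 and Smad4 0.058 after stimulation, Tgfbr2 0.092, Smad2 0.020 and Smad4 0.21 for stimulation in WT, and Tgfb1 0.53, Tgfbr1 0.012, Smad2 0.095 and Ski 0.22 for stimulation in cKO. Leaving out a library gave, for genotype ex vivo, Tgfbr2 -0.21 to 0.018, Ski -0.094 to 0.058 and Smad7 -0.18 to 0.022, for Smad4 -0.18 to 0.029 after stimulation, -0.087 to 0.014 for stimulation in WT and -0.063 to 0.17 in cKO, and for the interaction Smad2 -0.057 to 0.15 and Smad4 -0.024 to 0.21. The number of libraries, 3 a group, limits the precision; the 95% intervals for Smad2 and Smad4 cover 0 in both genotype comparisons.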
